A study of Mus musculus with 9 samples.

Results

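The 10 integrin genes of T cells examined here are Itgae, Itga1, Itga4, Itga6, Itgal, Itgav, Itgb1, Itgb2, Itgb3 and Itgb7. They were chosen by gene symbol, with earlier results of these data known, so their calls are not those of a set picked blind. The data set holds nascent RNA of 37022 genes from mouse CD8+ T cells, the lymphocytes that kill infected or tumour cells. RNA made during a short pulse of the uridine analogue 5-ethynyl uridine was captured and sequenced. The 3 groups held 3 libraries each: acute stimulation (Acute), chronic stimulation (Chronic), and chronic stimulation with MEK inhibition (ChronicMEKi), MEK being the kinase that activates ERK in the MAP kinase cascade. The labels used here give no strain, genotype, age or sex of the mice, no inhibitor name, and no manner or duration of stimulation, and they do not say whether the libraries of a group came from separate animals or cultures. The p-values therefore measure the spread between these libraries, which may be technical. In bulk libraries, fewer cells that transcribe a gene and less transcription per cell cannot be told apart.

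Integrins are cell-surface receptors made of an alpha and a beta chain, and the pairing of the chains sets what the receptor binds. Itgal and Itgb2 encode LFA-1, which binds ICAM proteins at the contact between a T cell and its target. Itga4 pairs with Itgb1 or Itgb7 and carries lymphocytes onto VCAM-1 or MAdCAM-1 of blood vessels, while Itgae (CD103) pairs with Itgb7 and holds T cells to E-cadherin of epithelia, a hallmark of tissue-resident CD8+ T cells. Itga1 and Itga6 pair with Itgb1 and bind collagen and laminin. Itgav pairs with Itgb1 or Itgb3, binds matrix proteins and releases TGF-beta from its latent form; TGF-beta in turn is a known inducer of Itgae.

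The values are a signal per annotated transcript row, deposited in a table read here as gene body and a table read here as pause region, the stretch close to the transcription start. They were scaled between libraries and tested on the log2(signal + 5) scale with limma. A gene is called where limma's adjusted p was under 0.05. The summed gene-body signal lay between 48601757 and 52216192 per library, and that of the pause region between 4886438 and 8489259; depth in reads is unknown. All 7 CD8 T cell markers passed the filter (signal 50 or more in 3 or more libraries), and their summed level was 36028 to 41727 in Acute, 22596 to 27566 in Chronic and 30867 to 33446 in ChronicMEKi. Of these, Cd8a, a chain of the CD8 co-receptor, averaged 4061 ± 361 (SD, n = 3) under acute stimulation, 969 ± 179 in Chronic and 2881 ± 262 in ChronicMEKi, so the gene that names the cells moved between the groups as well. Summed CD4 T cell markers lay at 1040 to 1367 in Acute, 1054 to 1383 in Chronic and 1729 to 2016 in ChronicMEKi. The 2 genes found of that list moved in opposite directions. Cd4 itself averaged 442, 234 and 116 and was called lower in every comparison. Zbtb7b averaged 789, 1002 and 1769 and was called higher in ChronicMEKi than in Chronic and than in Acute. The NK cell sum of 976 to 1852 came nearly all from Eomes, which CD8+ T cells also transcribe. Summed B cell markers lay at 534 to 565 in Acute, 189 to 219 in Chronic and 160 to 435 in ChronicMEKi. The myeloid and dendritic cell sum was 311 to 401, 307 to 329 and 192 to 435, with mean Lyz2 and Cd14 at 3.23 or below and Cd68, the highest of that list, at 91.4 to 111. Platelet and megakaryocyte markers summed to at most 145, with Itga2b at 57.9 to 68.8 on average and Pf4 at 4.28 or below, and erythroid markers to at most 46.7. The stromal and endothelial sum of 3770 to 7475 came nearly all from Pecam1, an adhesion molecule that T cells also transcribe. The part of these markers in the integrin results was not tested.

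Promoter sequences of 5 of the 10 genes were matched in RefSeq (GRCm38.p6), each read here as the 250 bases before the annotated start. Those of Itgb7, Itgb1 and Itgav are shown, because the pause region next to the start was called lower under chronic stimulation for the first and second genes, and because Itgav moved opposite to them in the gene body. They are chr15:102231936-102232185 on the minus strand, chr8:128685404-128685653 on the plus strand and chr2:83724147-83724396 on the plus strand. Capitals mark matches, on either strand, to the motifs searched: CCGGAA (ETS factors), TGTGGT (RUNX factors), GGGCGG (GC box) and CAGACA (SMAD factors).
Itgb7: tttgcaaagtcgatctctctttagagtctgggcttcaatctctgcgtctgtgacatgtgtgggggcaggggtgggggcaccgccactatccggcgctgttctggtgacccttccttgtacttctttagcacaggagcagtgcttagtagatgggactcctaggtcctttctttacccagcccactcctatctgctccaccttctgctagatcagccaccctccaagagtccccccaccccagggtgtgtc
Itgb1: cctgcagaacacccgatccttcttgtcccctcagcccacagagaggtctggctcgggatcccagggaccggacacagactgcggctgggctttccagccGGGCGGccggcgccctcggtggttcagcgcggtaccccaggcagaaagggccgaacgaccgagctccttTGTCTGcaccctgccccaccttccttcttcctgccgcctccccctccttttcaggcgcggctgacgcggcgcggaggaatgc
Itgav: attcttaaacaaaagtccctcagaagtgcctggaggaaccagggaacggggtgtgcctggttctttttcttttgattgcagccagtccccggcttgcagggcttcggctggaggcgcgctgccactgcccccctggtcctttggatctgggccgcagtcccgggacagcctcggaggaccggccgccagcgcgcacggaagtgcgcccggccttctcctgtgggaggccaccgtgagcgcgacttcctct
The Itgb1 promoter held 1 match to the GC box and 1 to the SMAD motif, and the Itgb7 and Itgav promoters held none of the 4 motifs. The Itga4 promoter held 1 match each to the RUNX motif, the GC box and the SMAD motif, and that of Itga1 none. Among 32851 promoter windows of the same length, 12% held the ETS motif, 14% the RUNX motif, 32.7% the GC box and 17.1% the SMAD motif. The matches describe letters in these windows and do not show binding.

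Chronic stimulation was compared with acute stimulation first. In the gene body, 6 of the 10 integrin genes were lower (Itga6, Itgb7, Itgae, Itgb1, Itgal and Itga4), 3 were higher (Itgav, Itgb3 and Itgb2), and Itga1 was not called. Over all 15942 genes tested, 33.9% were called, 18% higher and 15.9% lower. The median log2 fold change was -0.63 over the integrin genes and -0.02 over all genes. MEK inhibition under chronic stimulation, set against Chronic, gave higher signal for Itga6, Itgb7 and Itgae and lower signal for Itgav and Itgb3, 5 of the 10 genes, where 17.6% of all genes were called (9.93% higher, 7.65% lower). ChronicMEKi set against Acute gave 1 higher gene, Itgav, and 5 lower ones, Itgae, Itgb1, Itgal, Itga4 and Itgb3, where 25.8% of all genes were called (14.4% higher, 11.5% lower). These 3 comparisons share libraries with each other and are not independent.

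**Figure D1:**
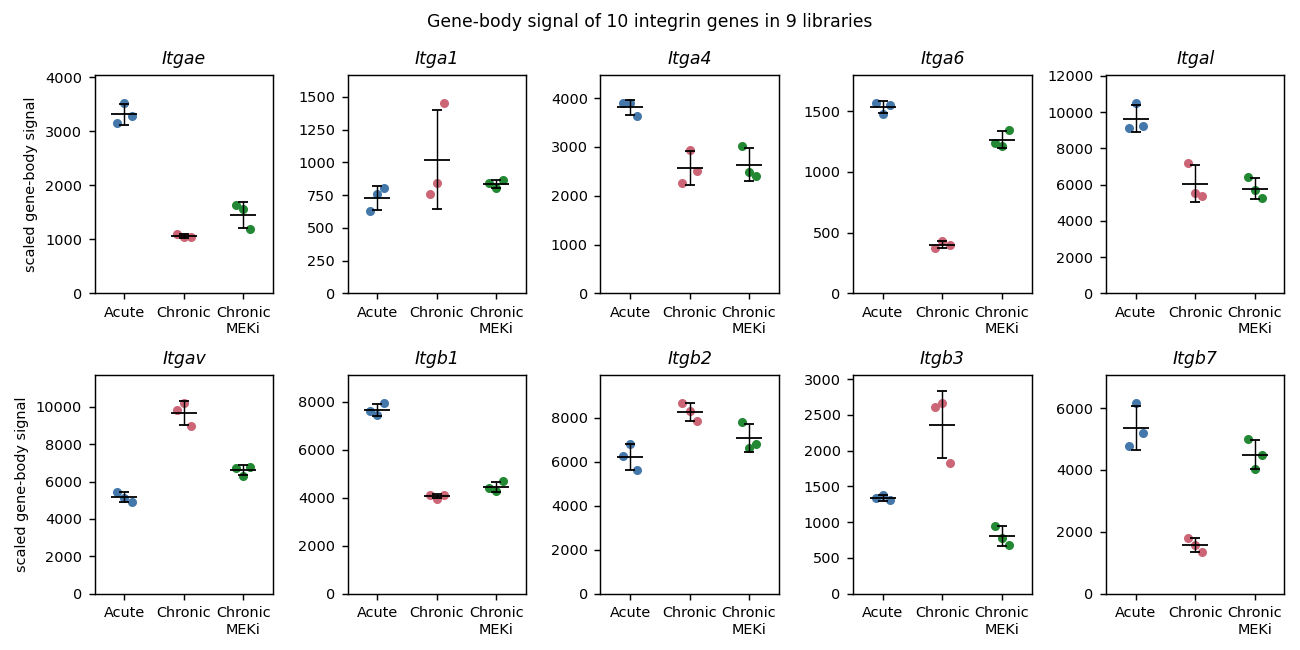
Scaled gene-body signal of each integrin gene (vertical axis, starting at 0) in the 9 libraries. Points are libraries, wide bars are group means and error bars are SD (n = 3). Itga6 and Itgb7 are low in the 3 Chronic libraries alone, Itgav and Itgb3 are highest there, and Itgae, Itgb1, Itgal and Itga4 are high in the Acute libraries.

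Which direction a gene takes depends in part on how libraries are scaled, since Acute and Chronic libraries differed in the share of signal outside the typical gene. With library totals in place of the trimmed mean, the log2 fold change of the median gene moved by -0.49 between Chronic and Acute, 0.11 between ChronicMEKi and Chronic and -0.38 between ChronicMEKi and Acute. All genes called then split into 6.87% higher and 42.9% lower between Chronic and Acute, and the integrin genes into 1 higher (Itgav) and 6 lower. Between ChronicMEKi and Acute the split was 5.99% higher and 31.1% lower over all genes, and 0 higher and 7 lower over the integrin genes. Between ChronicMEKi and Chronic the integrin genes kept 3 higher and 2 lower. The values below are relative to the trimmed mean, and where library totals change the call of an integrin gene this is given beside it.

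Among the full rows of the alpha chains, that of Itga6, which pairs with Itgb1 to bind laminin, fell most under chronic stimulation (mm10, chr2:71786940-71856771, plus strand). Its gene-body signal was 1567, 1478 and 1553 in the Acute libraries, 378, 432 and 395 in the Chronic libraries and 1237, 1215 and 1347 in the ChronicMEKi libraries. The Chronic libraries were all low, and no 2 groups overlapped. The signal was 3.79-fold lower in Chronic than in Acute (log2 fold change -1.92 ± 0.13 SE; limma's adjusted p = 2.69e-09). It was 3.13-fold higher in ChronicMEKi than in Chronic (1.65 ± 0.13; limma's adjusted p = 5.74e-08). ChronicMEKi lay at -0.28 ± 0.13 against Acute and was not called (limma's adjusted p = 0.147). With library totals that last difference was -0.66 and called lower (limma's adjusted p = 0.00218).

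Itgae, the CD103 chain, was lower under chronic stimulation and rose only in small part with MEK inhibition (mm10, chr11:73090583-73147446, plus strand). Its signal was 3145, 3522 and 3278 in Acute, 1104, 1044 and 1043 in Chronic, and 1628, 1556 and 1183 in ChronicMEKi. Every Acute library was above every other library, and the lowest ChronicMEKi library was close to the highest Chronic one. Chronic was 3.10-fold below Acute (log2 fold change -1.63 ± 0.13 SE; limma's adjusted p = 9.995e-09). ChronicMEKi was 1.35-fold above Chronic (0.44 ± 0.13; limma's adjusted p = 0.0201) and 2.29-fold below Acute (-1.20 ± 0.13; limma's adjusted p = 1.02e-06). The call between ChronicMEKi and Chronic was lost without ChronicMEKi replicate 1 (limma's adjusted p = 0.195), ChronicMEKi replicate 2 (0.0893), Chronic replicate 2 (0.0620) or Acute replicate 3 (0.05003). Haspin, a kinase gene on the opposite strand, lies inside the last part of Itgae, and whether the signal was counted by strand is not stated in the sources used here. A shorter Itgae row that ends before Haspin held 2287 ± 176 in Acute, 496 ± 112 in Chronic and 716 ± 128 in ChronicMEKi (SD, n = 3). Fitted in place of the full row, it gave -2.21 between Chronic and Acute, 0.53 between ChronicMEKi and Chronic (limma's adjusted p = 0.0423) and -1.68 between ChronicMEKi and Acute. Chronic and ChronicMEKi overlapped in this shorter row, with 619 in Chronic replicate 1 and 569 in ChronicMEKi replicate 3. The rest of the gene, which holds Haspin, had 1028 ± 128, 568 ± 80.1 and 739 ± 114. The decrease under chronic stimulation was thus larger in the part without the overlapping gene.

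Itga1, a collagen-binding chain, could not be read from its full row (mm10, chr13:114953096-115101964, minus strand). The row held 628, 756 and 801 in Acute, 759, 847 and 1453 in Chronic, and 839, 801 and 862 in ChronicMEKi, and no comparison was called. Chronic replicate 3 stood above all other libraries. Between 83.3% and 98.6% of this signal, depending on the library, lay in the first 54.7 kb, where Pelo lies on the same strand and Gm10734 on the opposite one. Gm49395 also overlaps Itga1 on the same strand, and its place within the row was not examined. The other 93.9 kb held 87.0 ± 23.1 in Acute, 31.4 ± 28.4 in Chronic and 43.2 ± 7.74 in ChronicMEKi (SD, n = 3). Per kb this was 0.927, 0.335 and 0.460, low beside every other integrin gene. In that part the difference between Chronic and Acute was -1.58 ± 0.57 SE (limma's adjusted p = 0.0391), opposite in sign to the 0.43 of the full row (limma's adjusted p = 0.107). Its scaled signal was above the filter level of 50 in all Acute libraries (105, 61.0 and 95.1) and in Chronic replicate 3 (64.1). It was below that level in Chronic replicates 1 and 2 (18.0 and 12.1) and in all ChronicMEKi libraries. The part thus passed the filter through its Acute libraries, and this call rests on low signal.

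**Figure D2:**
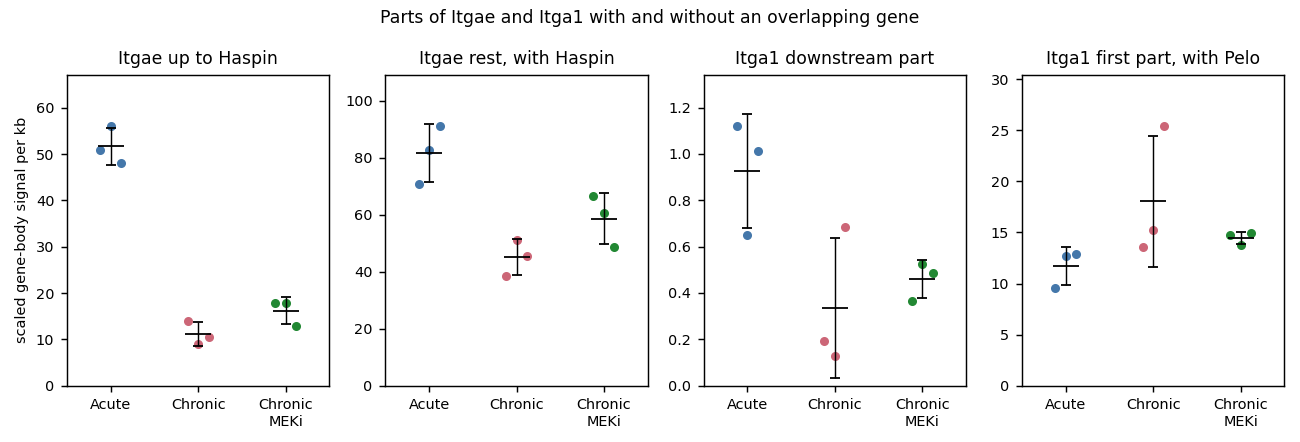
Scaled gene-body signal per kb (vertical axes, each starting at 0 and with its own range) in parts of Itgae and Itga1, by group. Points are libraries, wide bars are means and error bars are SD (n = 3). The Itgae part up to Haspin falls from 51.7 per kb in Acute to 11.2 in Chronic, and the downstream part of Itga1 stays near or below 1 while the part with Pelo holds 11.7 to 18.1 on average.

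Itgal, the alpha chain of LFA-1, was lower under chronic stimulation with and without the inhibitor (mm10, chr7:127296291-127335138, plus strand). Its signal was 9155, 10504 and 9264 in Acute, 7218, 5554 and 5396 in Chronic, and 6403, 5696 and 5250 in ChronicMEKi. The Acute libraries were all above the rest, and Chronic and ChronicMEKi overlapped. Chronic was 1.60-fold below Acute (log2 fold change -0.68 ± 0.11 SE; limma's adjusted p = 0.000111) and ChronicMEKi 1.67-fold below Acute (-0.74 ± 0.11; limma's adjusted p = 7.05e-05). ChronicMEKi differed from Chronic by -0.06, with a 95% interval of -0.29 to 0.18.

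Itga4, the chain of the VCAM-1 and MAdCAM-1 receptors, was likewise lower in both chronic groups than in Acute (mm10, chr2:79255500-79333123, plus strand). It measured 3900, 3895 and 3640 in Acute, 2254, 2932 and 2518 in Chronic, and 3022, 2482 and 2400 in ChronicMEKi. Again the Acute libraries stood apart and the other groups overlapped. The log2 fold change was -0.58 ± 0.11 SE between Chronic and Acute (limma's adjusted p = 0.000674) and -0.54 ± 0.11 between ChronicMEKi and Acute (limma's adjusted p = 0.00172). ChronicMEKi lay at 0.04 against Chronic, with a 95% interval of -0.20 to 0.28. Cerkl overlaps the end of Itga4 on the opposite strand. A shorter row that ends well before it spans 37.6 of the 77.6 kb and held 27.6% to 38.2% of the signal, depending on the library. It gave -0.46 between Chronic and Acute (limma's adjusted p = 0.0454) and -0.39 between ChronicMEKi and Acute, which was no longer called (limma's adjusted p = 0.103). This row leaves out much of Itga4 besides the overlap, and whether the lost call comes from Cerkl or from the shorter stretch was not tested.

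Itgav, the chain of matrix receptors that release TGF-beta, rose under chronic stimulation (mm10, chr2:83724397-83806916, plus strand). Its signal was 5441, 5143 and 4914 in Acute, 9853, 10182 and 8952 in Chronic, and 6713, 6314 and 6802 in ChronicMEKi. The 3 groups did not overlap, with ChronicMEKi between the other two. Chronic was 1.87-fold above Acute (log2 fold change 0.90 ± 0.09 SE; limma's adjusted p = 1.81e-07), and ChronicMEKi was 1.46-fold below Chronic (-0.55 ± 0.09; limma's adjusted p = 0.000154). ChronicMEKi was 0.36 ± 0.09 above Acute on the log2 scale (limma's adjusted p = 0.00477). That last call was lost with library totals, which gave -0.03, without Acute replicate 3 (limma's adjusted p = 0.0616) and without ChronicMEKi replicate 1 (0.050002). Gm13684 and Dnmt3l-ps1 lie on the opposite strand inside Itgav. Gm13684 moved in the same direction in its own row, by 0.98 between Chronic and Acute, and the 2 genes cannot be told apart there without knowing how strand was used. A short row of 3.996 kb at the end of Itgav, clear of Gm13684, gave 1.44 between Chronic and Acute and -1.16 between ChronicMEKi and Chronic (limma's adjusted p = 4.66e-06 and 0.000122), and 0.28 between ChronicMEKi and Acute (0.276). Whether that row is also clear of Dnmt3l-ps1 was not examined.

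Among the beta chains, Itgb7, the partner of Itgae and Itga4 in gut-directed receptors, fell most (mm10, chr15:102215995-102231944, minus strand). Its signal was 4763, 6151 and 5179 in Acute, 1791, 1559 and 1335 in Chronic, and 4986, 4037 and 4471 in ChronicMEKi. The Chronic libraries were all low, and Acute and ChronicMEKi overlapped. Chronic was 3.43-fold below Acute (log2 fold change -1.78 ± 0.12 SE; limma's adjusted p = 2.62e-09), and ChronicMEKi was 2.88-fold above Chronic (1.53 ± 0.12; limma's adjusted p = 5.41e-08). ChronicMEKi lay at -0.25 ± 0.12 against Acute (limma's adjusted p = 0.152). This difference was called lower with library totals (-0.63; limma's adjusted p = 0.00193) and without Acute replicate 1 (-0.39; 0.0458).

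Itgb1, the partner shared by the collagen, laminin and VCAM-1 receptors, was lower in both chronic groups (mm10, chr8:128685654-128733200, plus strand). It measured 7615, 7423 and 7927 in Acute, 4125, 3963 and 4115 in Chronic, and 4404, 4259 and 4679 in ChronicMEKi. All Acute libraries were far above the rest, and the ChronicMEKi libraries lay just above the Chronic ones with no overlap. Chronic was 1.88-fold below Acute (log2 fold change -0.91 ± 0.08 SE; limma's adjusted p = 1.11e-07), and ChronicMEKi 1.72-fold below Acute (-0.78 ± 0.08; limma's adjusted p = 1.35e-06). The difference of 0.13 between ChronicMEKi and Chronic was not called (limma's adjusted p = 0.354; 95% interval -0.05 to 0.30).

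Itgb2, the beta chain of LFA-1 and of the leukocyte integrins, was slightly higher under chronic stimulation (mm10, chr10:77530380-77565708, plus strand; the row is a transcript annotated for nonsense-mediated decay that spans nearly the whole gene). Its signal was 6275, 6793 and 5626 in Acute, 8665, 8303 and 7852 in Chronic, and 7812, 6648 and 6797 in ChronicMEKi. All Chronic libraries were above all Acute ones, and the ChronicMEKi libraries lay in between, overlapping Acute. The log2 fold change between Chronic and Acute was 0.41 ± 0.10 SE (limma's adjusted p = 0.00237), and neither comparison of ChronicMEKi was called (-0.23 against Chronic, 0.19 against Acute). With library totals the difference between Chronic and Acute was -0.08 and not called (limma's adjusted p = 0.640). The difference between ChronicMEKi and Chronic was called lower without Acute replicate 2 (limma's adjusted p = 0.0262), Acute replicate 3 (0.0405) or ChronicMEKi replicate 1 (0.0347).

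Itgb3, the beta chain that joins Itgav in the vitronectin receptor, was highest in Chronic and lowest in ChronicMEKi (mm10, chr11:104608000-104670476, plus strand). It measured 1333, 1379 and 1305 in Acute, 2611, 2662 and 1826 in Chronic, and 952, 777 and 679 in ChronicMEKi. The 3 groups did not overlap, and Chronic replicate 3 was low within its group. ChronicMEKi was 2.92-fold below Chronic (log2 fold change -1.55 ± 0.15 SE; limma's adjusted p = 8.25e-07) and 1.68-fold below Acute (-0.75 ± 0.15; limma's adjusted p = 0.00136). Chronic was 1.74-fold above Acute (0.80 ± 0.15; limma's adjusted p = 0.000534), a call that was lost with library totals (0.31; limma's adjusted p = 0.169). Platelets also carry this chain. The platelet marker list, with Pf4, Ppbp and Gp9 among its genes, summed to 55.7 to 145 in Acute, 37.5 to 83.4 in Chronic and 68.7 to 95.3 in ChronicMEKi. Itga2b of that list averaged 68.8, 57.9 and 61.1, and Ppbp and Gp9 were at 0 in every Chronic library. A platelet share in the Itgb3 signal was not tested.

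**Figure D3:**
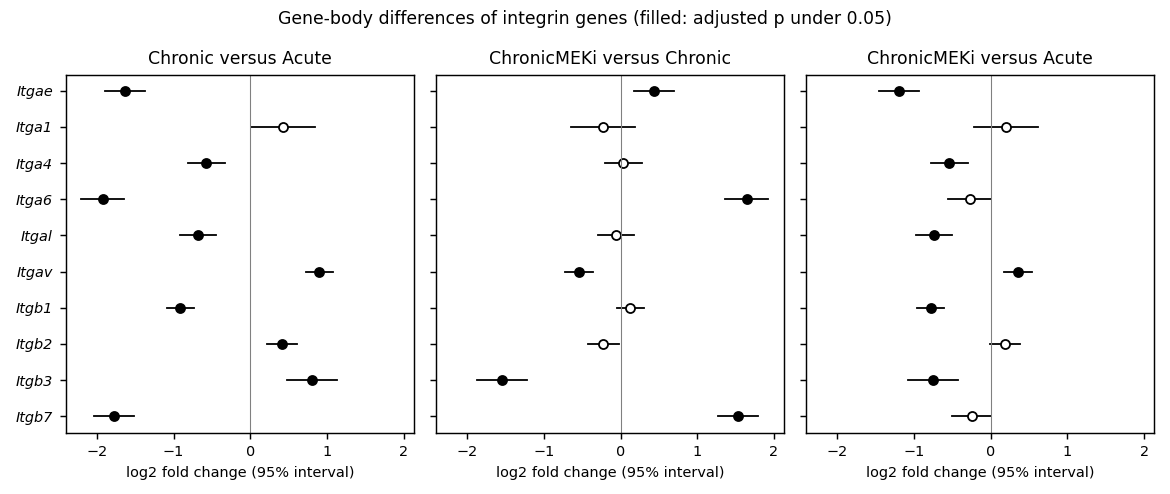
Log2 fold change of gene-body signal with its 95% interval (horizontal axis) for the 10 integrin genes in each comparison; filled points have an adjusted p under 0.05. Itga6 and Itgb7 lie far left between Chronic and Acute and far right between ChronicMEKi and Chronic, and Itgav and Itgb3 show the opposite signs.

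Annotated rows other than the chosen one gave the same signs. Of the 2 to 9 rows of each gene, those with a mean signal of at least 50 all shared the sign of the chosen row between Chronic and Acute. Between ChronicMEKi and Chronic they did so for every gene except Itgal, for which 1 row was higher and 5 were lower. The rows of a gene overlap and share signal, so they are not independent. Every Itga1 row held the 54.7 kb with Pelo, where most of the signal lay, so their shared sign says nothing about the rest of that gene. The part of Itga1 without this stretch gave -1.58 between Chronic and Acute, the opposite sign.

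Levels of different genes were compared as signal per kb of the row. In Acute, Itgb7 had the highest level at 336 ± 44.6 per kb, followed by Itgal at 248 ± 19.3, Itgb2 at 176 ± 16.5 and Itgb1 at 161 ± 5.35 (SD, n = 3), with the ranges of Itgb2 and Itgb1 overlapping. Itgav at 62.6 and Itgae at 58.3 overlapped, Itga4 had 49.1, Itga6 at 21.9 and Itgb3 at 21.4 overlapped, and Itga1 came last at 4.89. In Chronic, Itgb2 came first at 234 ± 11.5 and Itgal second at 156 ± 26.0. Itgav at 117 overlapped Itgb7 at 97.9, which overlapped Itgb1 at 85.6. Itgb3 at 37.9 overlapped Itga4 at 33.1, Itgae had 18.7, and Itga1 at 6.85 overlapped Itga6 at 5.75. In ChronicMEKi, Itgb7 was again first at 282 ± 29.8, before Itgb2 at 201, Itgal at 149, Itgb1 at 93.5, Itgav at 80.1, Itga4 at 33.9, Itgae at 25.6, Itga6 at 18.1, Itgb3 at 12.8 and Itga1 at 5.60, and no neighbours in that order overlapped. Itgb7 thus moved from rank 1 in Acute to rank 4 in Chronic. The place of Itga1 rests on the full row with Pelo; its other part had 0.335 per kb in Chronic, below Itga6.

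The gene-body signals of the 2 chain genes of a receptor were compared as the difference of log2(signal + 5) between the alpha and the beta gene of a library. This difference does not depend on the scaling between libraries. Nascent RNA signal does not measure the amount of chain protein or of assembled receptor. The rows of the 2 genes differ in length, so the value compares groups within a pair and does not say which chain has the higher level. With 3 against 3 libraries a two-sided exact permutation test cannot go below p = 0.1, and the smallest adjusted p over the 24 tests was 0.133, so no difference could pass the threshold. The sizes below are therefore given beside the ranges of the libraries.

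For LFA-1, Itgal minus Itgb2 averaged 0.63 ± 0.09 in the Acute libraries (SD, n = 3), -0.46 ± 0.17 in Chronic and -0.29 ± 0.07 in ChronicMEKi. Per kb of row, the alpha gene was above the beta gene in every Acute library and below it in every chronic library, treated or not. For the receptor of MAdCAM-1, Itga4 minus Itgb7 was -0.49 ± 0.19 in Acute, 0.72 ± 0.34 in Chronic and -0.77 ± 0.11 in ChronicMEKi, so it was higher in every Chronic library than in any other. Per kb, Itgb7 lay above Itga4 in all 3 groups. For the E-cadherin receptor, Itgae minus Itgb7 was -0.69 ± 0.11 in Acute and -0.54 ± 0.17 in Chronic, which overlapped, and -1.63 ± 0.27 in ChronicMEKi, below all other libraries. With the Itgae row that ends before Haspin, the difference between Chronic and Acute for this pair was -0.44 in place of 0.14.

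Itga6 minus Itgb1 was -2.32 ± 0.04 in Acute, -3.33 ± 0.13 in Chronic and -1.81 ± 0.02 in ChronicMEKi, 3 groups without overlap. Itgav minus Itgb1 was -0.57 ± 0.11, 1.25 ± 0.12 and 0.57 ± 0.03, also without overlap. Itgav minus Itgb3 was 1.94 ± 0.07 in Acute and 2.05 ± 0.21 in Chronic, which overlapped, and 3.05 ± 0.25 in ChronicMEKi. Itga4 minus Itgb1 was -1.01 ± 0.10, -0.67 ± 0.22 and -0.76 ± 0.21. The pair of Itga1 and Itgb1 rests on the row that Itga1 shares with Pelo and is not described.

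**Figure D4:**
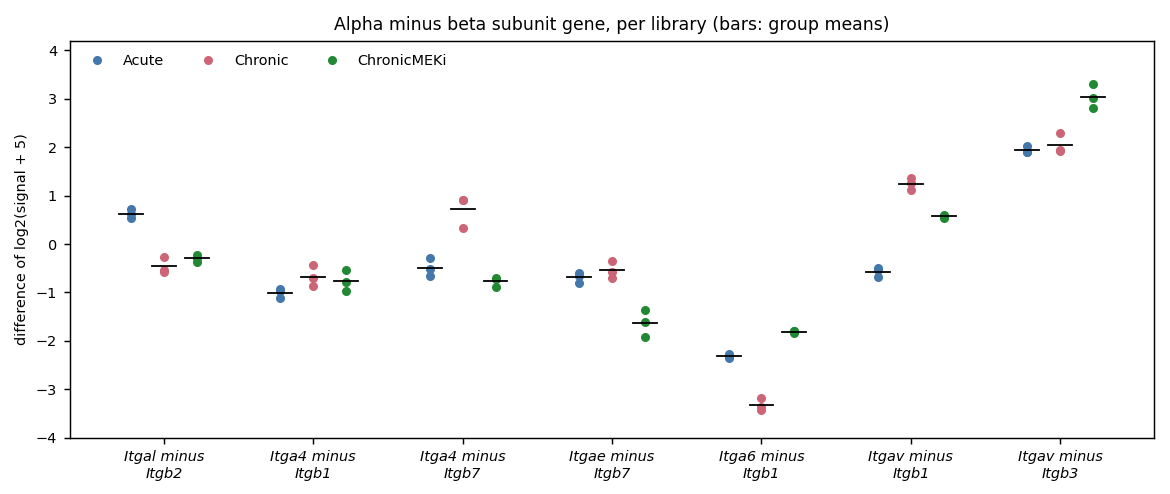
Difference of log2(signal + 5) between the alpha and the beta chain gene (vertical axis) of 7 integrin pairs in each library; points are libraries and bars are group means. Rows differ in length, so levels on this axis compare groups within a pair and not the 2 chains; Itga4 minus Itgb7 is highest in the 3 Chronic libraries, and Itgal minus Itgb2 in the 3 Acute libraries.

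In the pause region, 7 of the 10 integrin genes passed the filter; Itgae, Itga1 and Itga6 did not. Between Chronic and Acute, Itgb7 and Itgb1 were lower, 2 of the 7 tested, where 10.7% of 7678 genes were called (5.37% higher, 5.35% lower). Itgb7 measured 228, 199 and 237 in Acute, 55.4, 98.1 and 74.5 in Chronic, and 210, 165 and 207 in ChronicMEKi. The Chronic libraries were again all low, at a log2 fold change of -1.51 ± 0.29 SE against Acute (limma's adjusted p = 0.00055). Against Chronic, Itgb7 was 1.32 ± 0.29 higher in ChronicMEKi (limma's adjusted p = 0.0070), the 1 integrin gene called where 3% of genes were (1.56% higher, 1.43% lower). That call was lost without ChronicMEKi replicate 1 (limma's adjusted p = 0.0551), without ChronicMEKi replicate 3 (0.0502) and without the filter (0.0713).

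Itgb1 in the pause region measured 298, 270 and 251 in Acute, 142, 204 and 123 in Chronic, and 194, 318 and 248 in ChronicMEKi. Acute and Chronic did not overlap (log2 fold change -0.81 ± 0.26 SE; limma's adjusted p = 0.0409), and ChronicMEKi overlapped both. The call did not hold without any of Acute replicates 1, 2 or 3, Chronic replicates 1 or 3, or ChronicMEKi replicate 3 (limma's adjusted p from 0.0516 to 0.159). Nor did it hold without the filter (limma's adjusted p = 0.236). Itgb3 measured 12.4, 22.6 and 2.96 in Acute and 56.5, 137 and 29.2 in Chronic, without overlap, and was not called (2.10 ± 0.74; limma's adjusted p = 0.0684). Between ChronicMEKi and Acute no integrin gene was called by limma in the pause region, where 5.95% of all genes were called (3.44% higher, 2.51% lower). None was below 0.05 before adjustment in limma either, where 18.9% of all genes were.

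Whether pause region and gene body moved unequally was tested on the difference between them. No integrin gene was called by limma in any comparison, and no gene of the 7413 tested was. Below 0.05 before adjustment, limma put 749 genes between Chronic and Acute, 394 between ChronicMEKi and Chronic and 591 between ChronicMEKi and Acute; Itgb3 was among them in the first (limma's adjusted p = 0.484) and the last (limma's adjusted p = 0.547). For Itgb7 the change of that difference was 0.27 between Chronic and Acute, with a 95% interval of -0.41 to 0.94, and -0.20 between ChronicMEKi and Chronic, with an interval of -0.88 to 0.47.

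Profiles over the 9 libraries were compared by Pearson's correlation of log2(signal + 5), as a description, since the 9 libraries fall into 3 groups. Among the members, Itga6 and Itgb7 were most alike (r = 0.975), followed by Itgae and Itgb1 (r = 0.957). For Itga6, Itgb7 and Itgae, the members with the largest range between group means, the most similar of 10745 other genes were sought. Itga6 was most like Tgfbr1 (r = 0.997), Iigp1 (r = 0.996) and Dtx3l (r = 0.995). Itgb7 was most like Sema4a (r = 0.995), Fam102a and Arhgef18 (both r = 0.994). Itgae was most like Raet1e (r = 0.995), Nfatc3 (r = 0.991) and Pde11a (r = 0.989). Raet1e shares its locus with related genes on the same strand, and Dtx3l and Nfatc3 share theirs with a gene of the other strand. The signal of these genes is therefore uncertain. Tgfbr1, a receptor chain for TGF-beta, measured 6402 ± 352 in Acute, 1295 ± 39.8 in Chronic and 4809 ± 54.9 in ChronicMEKi.

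The genes around the integrins were read from 5 lists, given here as higher and lower counts in the gene body. Of 11 other integrin subunit genes that passed the filter, of 16, 2 were higher and 0 lower between Chronic and Acute, 0 and 1 between ChronicMEKi and Chronic, and 2 and 1 between ChronicMEKi and Acute. These are 18.2%, 9.09% and 27.3% of the 11, beside 33.9%, 17.6% and 25.8% of all genes tested. The called ones were Itga3, at 85.0 in Acute, 222 in Chronic and 240 in ChronicMEKi, Itga9, at 1652, 2851 and 2484, and Itga2, at 149, 142 and 49.2. The calls of Itga9 were lost with library totals. The 2 higher between ChronicMEKi and Acute also became 1 with plain moderation and without any 1 of the Acute libraries, Chronic replicate 3, ChronicMEKi replicate 2 or ChronicMEKi replicate 3, and the 1 lower between ChronicMEKi and Chronic became 0 without Chronic replicate 2. The myeloid chains Itgam and Itgax had means of at most 30.9 and 49.2 and were not tested.

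Of 35 tested activation and adhesion adaptors, 7 were higher and 14 lower between Chronic and Acute, 8 and 8 between ChronicMEKi and Chronic, and 5 and 14 between ChronicMEKi and Acute. In all, 60%, 45.7% and 54.3% of the 35 were called, beside 33.9%, 17.6% and 25.8% of all genes. With library totals the splits were 3 and 22, 8 and 4, and 1 and 21. Over all genes that scaling gave 6.87% higher and 42.9% lower, 11.1% and 4.65%, and 5.99% and 31.1%. The 8 lower between ChronicMEKi and Chronic became 13 without any 1 of the Acute libraries and 5 with plain moderation, and the 5 higher between ChronicMEKi and Acute became 2 with plain moderation or without Acute replicate 1, Acute replicate 3 or ChronicMEKi replicate 1, 3 without ChronicMEKi replicate 3, and 1 with totals that leave out ribosomal RNA-like rows. Rasgrp2, which switches on the integrin-activating GTPase Rap1, measured 2104 ± 507 in Acute, 314 ± 104 in Chronic and 1927 ± 459 in ChronicMEKi (log2 fold change -2.76 and 2.63; limma's adjusted p = 3.05e-06 and 1.04e-05). Zyx, Ptk2 and Vcl, genes of focal adhesion proteins, were higher in Chronic than in Acute by 1.97, 1.92 and 1.24. Ptk2, the focal adhesion kinase, then fell by 2.45 with MEK inhibition. Relative to the trimmed mean, Vcl and Zyx were called lower there as well (-0.63 and -0.49; limma's adjusted p = 0.0161 and 0.0225). Rasa3, a brake on Rap1, measured 7781 ± 728, 3301 ± 458 and 1947 ± 230 in Acute, Chronic and ChronicMEKi and was called lower in every comparison. Tln1, the talin that opens integrins, was 0.50 higher between Chronic and Acute, a call lost with library totals (0.01), and Fermt3 was not called there (-0.16) but was called lower with library totals (-0.66; limma's adjusted p = 0.00043). Rap1b lay at 0.02 between Chronic and Acute, which became -0.47 with library totals, and fell by 0.31 with MEK inhibition, a call lost with library totals. Several of these genes, among them Rasgrp2, Zyx, Vcl, Ptk2 and Tln1, share their locus with a gene of the other strand.

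Of 11 tested ligand genes, 1 was higher and 5 lower between Chronic and Acute, 3 and 0 between ChronicMEKi and Chronic, and 0 and 2 between ChronicMEKi and Acute. The share called was 54.5%, 27.3% and 18.2%, beside 33.9%, 17.6% and 25.8% of all genes. The 2 lower became 4 with library totals or on the deposited scale, where 31.1% and 28.5% of all genes were lower. Cdh1, E-cadherin and the ligand of the Itgae receptor, measured 1026 ± 138 in Acute, 15.2 ± 8.89 in Chronic and 156 ± 29.0 in ChronicMEKi. Its log2 fold changes were -5.75 between Chronic and Acute and 3.06 between ChronicMEKi and Chronic (limma's adjusted p = 3.56e-10 and 3.18e-06). Icam1, the ligand of LFA-1, fell by 0.58 on the log2 scale between Acute and Chronic and was 0.43 higher in ChronicMEKi than in Chronic; Icam2 fell by 1.55 between Acute and Chronic.

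Of 21 TGF-beta pathway genes, all tested, 5 were higher and 13 lower between Chronic and Acute, 9 and 2 between ChronicMEKi and Chronic, and 3 and 9 between ChronicMEKi and Acute. That is 85.7%, 52.4% and 57.1% of the list, beside 33.9%, 17.6% and 25.8% of all genes. The list's median log2 fold change was -0.65, 0.33 and -0.33, beside -0.02, 0.04 and 0.00 over all genes. With library totals or on the deposited scale the 5 higher became 2 and the 2 lower became 1, and the latter also became 1 with plain moderation and without Chronic replicate 1, Chronic replicate 2 or ChronicMEKi replicate 3. Tgfbr1 and Lrrc32, which docks latent TGF-beta at the cell surface, were lower in Chronic than in Acute (log2 fold change -2.30 and -3.05) and higher in ChronicMEKi than in Chronic (1.89 and 2.10). Tgfbr2, Smad3 and Smad7, a receptor chain, a signal carrier and an inhibitor, were lower in Chronic than in Acute (-0.65, -1.01 and -1.30). With MEK inhibition Smad3 fell by 0.46 further (a call lost with library totals), and Tgfbr2 (0.02) and Smad7 (0.27) were not called. Smad7 was called higher there with library totals (0.38; limma's adjusted p = 0.0408). Tgfb1 itself was 0.63 higher in Chronic than in Acute, a call lost with library totals (0.14).

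Of 16 tested genes of tissue residence and exit, 3 were higher and 9 lower between Chronic and Acute, 6 and 5 between ChronicMEKi and Chronic, and 3 and 9 between ChronicMEKi and Acute, where 1 was higher with library totals or on the deposited scale. By share, 75%, 68.8% and 75% were called, beside 33.9%, 17.6% and 25.8% of all genes. Prdm1, Cxcr6 and Bhlhe40, genes of resident cells, were higher in Chronic than in Acute by 2.80, 1.61 and 1.28. All of them were lower in ChronicMEKi than in Chronic (-1.81, -2.93 and -0.78). S1pr1 and Klf2, the exit receptor and its activator, were lower in Chronic than in Acute (-3.77 and -3.01) and higher in ChronicMEKi than in Chronic (1.35 and 2.41). Cd69, a surface antagonist of the exit receptor, was lower in Chronic than in Acute (-1.28) and lower again with MEK inhibition (-1.28). Runx3, a known regulator of Itgae, was not called between Chronic and Acute (-0.30), was called lower there with library totals (-0.79; limma's adjusted p = 0.00474), and was 0.86 higher in ChronicMEKi than in Chronic. Cd101 and Cd244a, also on the list, were lower in Chronic than in Acute (-2.43 and -0.98) and were not called with MEK inhibition (0.82 and 0.27); Cd101 was called there with library totals (limma's adjusted p = 0.0432). Of these 2 genes, Cd244a falls outside the naming rule, and both were chosen after their values were seen. Cxcr6, Bhlhe40, Runx3 and Cd244a share their locus with a gene of the other strand, so their signal is uncertain while the use of strand is unknown.

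**Figure D5:**
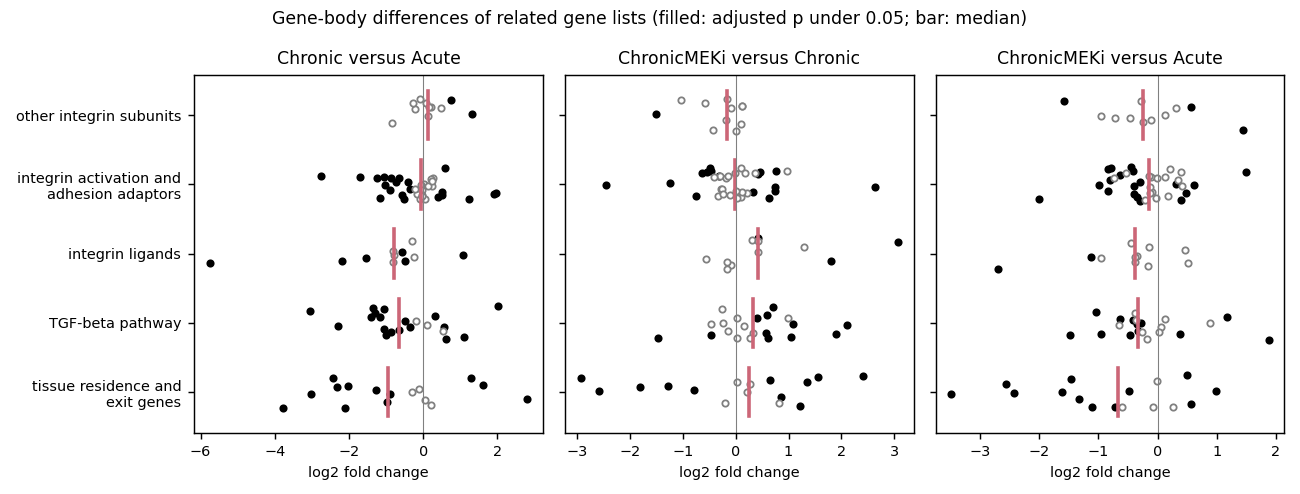
Log2 fold change of gene-body signal (horizontal axis) for the tested genes of the 5 lists in each comparison; filled points have an adjusted p under 0.05 and red bars are list medians. The TGF-beta list has its median at -0.65 between Chronic and Acute and at 0.33 between ChronicMEKi and Chronic; the horizontal axes differ between panels.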

How the data were processed

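Nascent RNA of 9 CD8+ T cell libraries was analysed from 2 deposited tables of signal per transcript. Per the submitters' processing notes, FastQC 0.12.0, Trim Galore 0.6.10, STAR 2.7.0a, SAMtools 1.19.2, deepTools 0.1.9, R 4.1.2 and the build mm10 were used; their settings, the exact regions, the annotation and the use of strand are not given in the sources used here. The deposited signal is no read count: its smallest nonzero value (0.764 to 1.06) differed between libraries and was shared by both tables. How the signal relates to reads is not stated, so depth is unknown and no counting interval is given. No column belonged to an unmapped sample.

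Of 118482 rows, 117346 matched the GENCODE annotation of mm10 with their transcript version, 383 without it, and 753 were left out. Each gene was represented in both tables by its row of highest mean signal in the gene body. Scale factors between libraries came from trimmed means of log ratios, without weights (30% of ratios and 5% of levels trimmed at each end) over genes that reached a signal of 50 in 3 or more libraries. One limma model (limma 3.58.1, R 4.3.3) with a mean per group, an intensity trend and robust moderation was fitted to log2(signal + 5) of all such genes, so fold changes of low genes are understated; p-values were adjusted by Benjamini and Hochberg over all genes, with a threshold of 0.05. Standard errors are limma's, and 95% intervals follow from them. Python 3.11.15 with pandas 2.3.3 served for the joins. The script was tested on simulated data.

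All integrin members are named. From each list the 3 largest rises and falls among called genes without overlap between groups could be named, besides genes fixed by name (Cdh1, Icam1, Tgfb1, Tgfbr1, Tgfbr2, Smad3, Smad7, Runx3, Cd69, S1pr1, Klf2, Tln1, Fermt3, Rap1b and Rasgrp2) and, for the 3 members with the largest range, the 3 most similar genes whose mean signal reached 100. The members and lists were chosen with earlier results of these data known. Alternatives were other scalings, pseudocounts of 0.5 and 20, no filter, the longest transcript's row, a replicate block, plain moderation, 2 groups only and leaving out each library. Rows clear of Pelo, Haspin, Cerkl or Gm13684 were added after seeing the data.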

Additional observations from a re-analysis of the deposited data

How the results depend on the processing

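The counts of integrin genes called in the gene body stayed within 1.5 times of 9, 5 and 6 under every alternative run. Signs turned with the scaling, which moves the median gene; the sources give no ground to prefer one. With library totals, Itga1 and Itgb2 lay at -0.058 and -0.079 between Chronic and Acute, Itgal at 0.048 between ChronicMEKi and Chronic, and Itga1, Itgav and Itgb2 at -0.18, -0.028 and -0.20 between ChronicMEKi and Acute. On the deposited scale, Itga1 and Itgb2 lay at -0.041 and -0.062 in the first comparison, Itgal at 0.072 in the second, and Itga1 and Itgb2 at -0.14 and -0.16 in the last. With totals that leave out ribosomal RNA-like rows, the median gene moved by -0.16 between Chronic and Acute, and Itgb2 was no longer called there (0.25; limma's adjusted p = 0.0504). Between ChronicMEKi and Acute, Itga6 and Itgb7 became called lower under that setting (-0.44 and -0.42; limma's adjusted p = 0.0195 and 0.0145) and on the deposited scale (-0.62 and -0.59; 0.0036 and 0.0037), and the call of Itgav was lost under both (0.19 and 0.013; 0.147 and 0.946). Itgb3 was no longer called between Chronic and Acute on the deposited scale (0.33; limma's adjusted p = 0.147). With the rows clear of Pelo, Haspin, Cerkl or Gm13684, chosen after seeing the data, Itga1 lay at -1.58, 0.67 and -0.91 in the 3 comparisons. With the same rows, Itgae minus Itgb7 was -0.44 between Chronic and Acute, and Itga1 minus Itgb1 was -0.67, 0.54 and -0.13. The call of Itgae between ChronicMEKi and Chronic was also lost without the filter (limma's adjusted p = 0.0586), with plain moderation (0.0774) and with 2 groups in the fit (0.0547); the cause was not tested.

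In the pause region, the 2 integrin genes called between Chronic and Acute became 1 on the deposited scale, 1 with totals that leave out ribosomal RNA-like rows, 1 with plain moderation and 1 with only the 2 groups compared. The single gene called between ChronicMEKi and Chronic became 0 without the filter, where 28462 genes were tested. Itgb2 turned sign in the pause region, to -0.080 with library totals between Chronic and Acute, and to 0.086 on the deposited scale and 0.080 without ribosomal RNA-like rows between ChronicMEKi and Acute. Depth in reads is unknown, and pause-region signals of most members lie near the filter.

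Leaving out each library in turn gave 1 to 3 integrin genes called in the pause region between Chronic and Acute and 0 to 1 between ChronicMEKi and Chronic. In the gene body between ChronicMEKi and Chronic, it gave -0.41 to 0.056 for Itga1, -0.12 to 0.14 for Itga4 and -0.19 to 0.073 for Itgal, none of them called. In the pause region it gave -0.18 to 0.63 for Itga4 and -0.046 to 0.64 for Itgal in that comparison, and -0.16 to 1.17 for Itgav, -0.30 to 0.049 for Itgb1 and -0.20 to 0.16 for Itgb2 between ChronicMEKi and Acute. Itga4 minus Itgb1 ranged from -0.20 to 0.029 between ChronicMEKi and Chronic, and Itgav minus Itgb3 from -0.019 to 0.17 between Chronic and Acute. Itga1 was called higher between Chronic and Acute without Chronic replicate 1 (0.61; limma's adjusted p = 0.0295).

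The labels do not say what a replicate number shares. Deviations from the group means correlated at -0.53 to 0.10 between libraries of the same number (0 of 9 pairs above 0.1) and at -0.37 to 0.51 between other numbers (5 of 18), so the numbers were not taken as pairs. A replicate block gave 9, 5 and 6 genes called in the gene body and 3, 1 and 0 in the pause region, where Itgb3 was added between Chronic and Acute (limma's adjusted p = 0.0412). With the block, 0 genes were called for the difference between pause region and gene body.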
